A study of Mus musculus with 12 samples.

Results

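The rows described here are the microRNA precursor rows of an RNA-seq table of mouse brain. They are the rows whose gene symbol starts with Mir followed by a digit or by let, with a mean of at least 1 RPKM (reads per kilobase of row and M reads) over the 12 libraries. Of 30399 rows in the table, 790 carried such a symbol, and 109 of these reached the mean. The 109 rows stood for 108 places in the genome, because the rows of Mir1906-1 and Mir1906-2 had the same position and the same values. Of the remaining rows, 461 were listed at 0 in all libraries and 220 had a mean above 0 and under 1 RPKM. The rows just inside the limit were Mir744 and Mir106b, each at 1.01 RPKM, and those just outside were a further Mir684-1 row at 0.979 RPKM and Mir378b at 0.964 RPKM.

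The miR group was 6 adult males grown from C57/Bl6:129S6/SvEvTac hybrid zygotes that had been microinjected with 9 synthetic microRNA mimics in phosphate-buffered saline, at 0.11 ng/uL each and 1 ng/uL in total. The PBS group was 6 males of the same cross and age whose zygotes received the saline vehicle alone. Both groups were carried by CD1 foster dams, and their brains were taken at 18 to 20 weeks. RNA came from punches of the paraventricular nucleus, the hypothalamic nucleus that starts the hormonal stress response, and stranded libraries were made from polyadenylated RNA.

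A microRNA is cut from a longer transcript. The Drosha and Dgcr8 proteins release a hairpin, the precursor, from the primary transcript in the nucleus, and Dicer cuts the hairpin in the cytoplasm to the mature strand, whose seed (bases 2 to 8) pairs with target messenger RNAs. Many hairpins lie in introns or exons of host genes, protein coding or not. A mature microRNA has no poly-A tail, so a value here is the density of reads from polyadenylated transcripts over the hairpin's interval and is no measure of the mature microRNA. Precursor rows were 49 to 124 bases long, with a median of 81.

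The mature sequences of the families that the results turn on show which precursors encode related products. They were taken from RefSeq (GRCm38.p6) and are given 5′ to 3′ with the seed in capitals. The mimics named in the labels include miR-29c, miR-30a and miR-30c. Those of miR-193 and miR-532 are given with their arm, 5p and 3p. let-7b, miR-1249 and miR-3101 come from precursor rows with the smallest p in the comparison of miR with PBS, and miR-1306 from the row of smallest p among those higher in miR.
miR-29c-3p: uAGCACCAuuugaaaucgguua
miR-29b-3p: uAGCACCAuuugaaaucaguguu
miR-30a-5p: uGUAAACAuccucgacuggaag
miR-30c-5p: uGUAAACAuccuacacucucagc
miR-193a-5p: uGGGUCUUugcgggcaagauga
miR-532-3p: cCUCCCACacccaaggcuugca
let-7b-5p: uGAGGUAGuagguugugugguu
let-7d-5p: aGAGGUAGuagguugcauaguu
miR-1249-3p: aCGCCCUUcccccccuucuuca
miR-3101-5p: gGUACCAUugacuaaagcuag
miR-1306-3p: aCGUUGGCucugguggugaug
miR-29c-3p and miR-29b-3p share the seed AGCACCA, miR-30a-5p and miR-30c-5p share GUAAACA, and let-7b-5p and let-7d-5p share GAGGUAG. Mir29c, Mir29b-2, Mirlet7b and Mirlet7d were all among the 109 rows, while the miR-30 precursors were not.

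The whole hairpin shows what a row covers. These are the RefSeq hairpins of the let-7b, miR-29c and miR-1249 precursors, with the mature strands in capitals.
Mirlet7b, chr15:85707319-85707403, + strand: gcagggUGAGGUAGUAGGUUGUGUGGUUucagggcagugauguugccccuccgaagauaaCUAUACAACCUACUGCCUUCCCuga
Mir29c, chr1:195037547-195037634, + strand: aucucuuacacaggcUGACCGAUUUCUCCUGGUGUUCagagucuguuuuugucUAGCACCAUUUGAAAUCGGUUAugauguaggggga
Mir1249, chr15:84951526-84951623, - strand: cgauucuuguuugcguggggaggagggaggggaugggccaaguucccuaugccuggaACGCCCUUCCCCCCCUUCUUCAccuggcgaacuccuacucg
Of the 109 rows, 95 (87.2%) had a RefSeq hairpin, and in 95 of 95 the row was as long as the hairpin.

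Depth was 22.7 to 45.1 M reads per library in miR and 27.6 to 38.1 M in PBS. At that depth a precursor row held a median of 10 reads per library, 50 rows had a median under 10 reads, and 19 had at least 1 library at 0. All 6 marker genes of the paraventricular nucleus were in the table, with summed levels of 1984 to 5160 RPKM in miR against 2190 to 5779 RPKM in PBS. The PBS libraries fell apart by a list of 7 genes, here called nuclear-retained RNAs. These are the long noncoding RNA Meg3, with Miat, Snhg11, Malat1, Neat1, Leng8 and Snrnp70. The list was chosen with earlier results of these data known. Meg3, Leng8 and Snrnp70 were named beforehand as values that divide the PBS libraries. The split by that list is therefore a description and no test. The mean z-score of that list was -0.83 to -0.38 in the 6 miR libraries, 0.86 to 1.77 in PBS 8, 9, 10 and 12, and -0.56 and -0.53 in PBS 7 and PBS 11. The summed level of that list was 188 to 259 RPKM in miR against 201 to 909 RPKM in PBS. Results that rest on this split are given with and without these libraries. Summed endothelial markers were at 20.1 to 28.9 RPKM in miR against 24.4 to 32.2 RPKM in PBS, with 5 of 5 lower in miR and 3 at an unadjusted p under 0.05 in limma (median log2 difference -0.26), and choroid plexus markers at 7.69 to 9.59 RPKM in miR and 7.21 to 10.2 RPKM in PBS. Their part in the differences below was not tested. In such bulk tissue, fewer cells of a type and less RNA per cell cannot be told apart.

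The precursor rows mostly lay inside longer transcript rows. On the same strand, 75 of 109 rows were contained in a longer row of another symbol and 34 were not. Of the 75, 2 were inside only through table rows with an implausible span of over 2.5 Mb. With those rows set aside, 73 precursor rows lay in 62 host genes, and these hosts are the ones named below. Of the 34 rows outside, 14 lay within a row of the opposite strand and 20 within none. The GRCm38 annotation (GENCODE M21, basic set) placed 35 of the 95 hairpins whole in an exon, 18 across an exon edge, 29 in an intron and 13 elsewhere, on the opposite strand of a gene or outside genes. Rows called outside lack a containing row in this table and need not lie between genes. In that annotation 10 of the 34 lay whole in an exon and 7 in an intron.

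Level relative to the host followed the annotated position. The ratio of mean RPKM in the precursor row to mean RPKM in its host had a median of 1.92 for rows whole in an exon (n = 24), 1.04 for rows across an exon edge (n = 17) and 0.122 for rows in an intron (n = 21). Over the 73 rows with a host, 37 had a ratio above 1. How reads that reach past a short row were counted is not given. A ratio above 1 therefore need not mean more transcript than in the host. The intronic rows held a median of 4 reads per library, against 19 for rows whole in an exon.

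**Figure D1:**
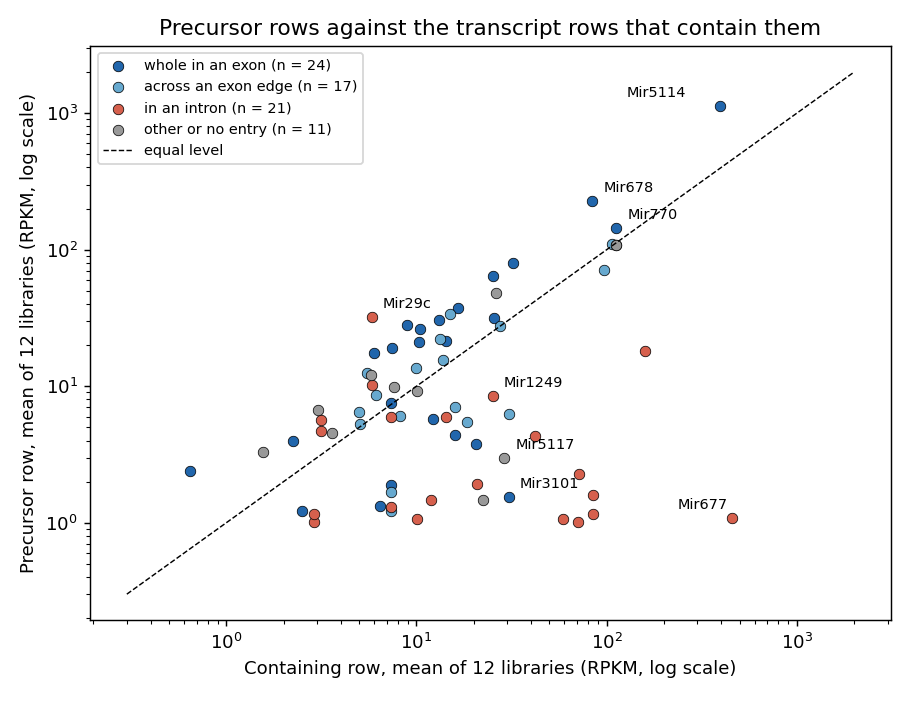
Mean level of each precursor row (vertical axis, RPKM, log scale) against that of the transcript row containing it (horizontal axis, RPKM, log scale), 1 point per row, coloured by its position in the GRCm38 annotation, with a dashed line of equal level. Rows whole in exons mostly lie above the line, with a median ratio of 1.92, and most intronic rows lie below it, with a median of 0.122.

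The precursor rows of highest level lay in or at exons of messenger RNAs, or in Meg3. Mir5114, in Scd2, a stearoyl-CoA desaturase of fatty acid synthesis, led with a mean of 1136 RPKM over the 12 libraries, against 396.6 RPKM for Scd2 itself. Mir678, in the arginine methyltransferase gene Prmt2, followed at 228 RPKM, Mir770 in Meg3 at 144 RPKM, Mir3064 in the RNA helicase gene Ddx5 at 110 RPKM and Mir1906-1 in Meg3 at 109 RPKM. These are transcript levels over the hairpin's interval.

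The ratio to the host had a wide range. Mir29c, intronic in the basic set but exonic in the comprehensive one, stood highest, at 5.56 times the level of its noncoding host A330023F24Rik, followed by Mir147 in AA467197 (3.75), Mir5046 in the kinase gene Rps6ka4 (3.13) and Mir22 in its noncoding host 2210403K04Rik (2.91). AA467197 had a mean of only 0.641 RPKM, under the limit of 1 RPKM, and Mir147 a median of 5 reads per library. The lowest ratios were those of intronic rows. Mir677 had 0.00236 times the level of Atp5b, the beta subunit of ATP synthase, Mir341 had 0.0136 times that of the noncoding RNA Rian, Mir744 had 0.0143 times that of the kinase gene Map2k4, and Mir7-1 had 0.0180 times that of Hnrnpk, an RNA-binding protein gene. Intronic rows with such ratios held few reads: Mir677 had 10 reads over the miR libraries and 22 over the PBS libraries.

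In 3 pairs, a precursor row lay within another on the opposite strand. Mir374 lies on the minus strand of the X chromosome and held 166 reads over the 12 libraries, while Mir374c, a shorter row within it on the plus strand, held 141. The same held for Mir3071 with 119 reads over Mir136 with 78, and for Mir3074-1 with 60 reads over Mir24-1 with 47. In each of these 3 pairs the shorter row had no more reads than the longer in 12 of 12 libraries. Whether the same reads were counted in both was not tested. Mir5126, opposite the abundant Dner, was at 2.13 RPKM against 77.8 RPKM for Dner.

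No precursor row passed the test for a difference between miR and PBS in the full set of libraries. With limma on log2(RPKM + 0.5), 0 of 109 precursor rows and 0 of 13273 genes tested (0%) had an adjusted p below 0.05. At an unadjusted p under 0.05, 27 precursor rows (24.8%) stood against 20.2% of all genes tested. Of these rows, 4 were higher and 23 lower in miR, or 3.67% and 21.1% of the 109, where the same limits took 9.12% and 11.1% of all genes. A 2-sided exact permutation test put 21 precursor rows at an unadjusted p under 0.05. Its smallest p is 0.00216, which 575 genes would have to share to pass the adjustment, where 64 genes had groups that did not overlap, so its adjusted p-values say nothing on the 0 calls of limma. With median-scaled libraries the limma counts were 5 higher and 22 lower among precursor rows, and 1717 higher and 1228 lower among all genes, against 1210 higher and 1477 lower as deposited. Counting direction alone, 74 of 109 rows (67.9%) were lower in miR, against 47.1% of all genes. The median log2 difference, miR minus PBS, was -0.27 over the precursor rows and 0.01 over all genes tested. In 14 of the 109 rows the miR mean was under 1 RPKM, and in 2 the PBS mean was, so these rows passed the limit on level only through the other group.

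The count depended on which PBS libraries entered. PBS 7 and PBS 11 were set apart by values of these same data that place them near the miR libraries. The p-values of fits without them, here and below, are therefore descriptions and no independent support for a difference. Without PBS 7 and PBS 11, limma called 6 precursor rows higher (5.5%) and 28 lower (25.7%) at an adjusted p below 0.05, against 11.9% and 11.5% of all genes. Leaving out PBS 7 alone gave 1 higher and 16 lower, against 1.83% and 5.02% of all genes, and leaving out PBS 11 alone gave 2 higher and 9 lower, against 0.784% and 2.45%. Without PBS 8, 9, 10 and 12, limma called 0 precursor rows and 0 genes, with 11 precursor rows (10.1%) and 99 genes (0.746%) at an unadjusted p under 0.05. With the score of the nuclear-retained RNAs as a covariate it again called 0 of both, with 11 precursor rows (10.1%) and 111 genes (0.836%) at an unadjusted p under 0.05. All 7 genes of that score were lower in miR at an unadjusted p under 0.05 in limma (median log2 difference -1.17). The covariate thus overlaps with the group difference, and values fitted with it do not separate the score from the group.

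Of the 29 intronic rows, 26 were lower in miR and the median log2 difference was -0.54, while the median was -0.04 for the 35 rows whole in an exon (19 lower) and -0.09 for the 18 across an exon edge (11 lower). The intronic rows made up 26 of all 74 lower rows, and 8 of the 23 that were lower at an unadjusted p under 0.05. The 3 intronic rows that were not lower were Mir106b, Mir744 and Mir2861. The limit on level bears on this count: 9 of the 29 intronic rows had a miR mean under 1 RPKM and 2 (Mir106b and Mir744) a PBS mean under 1 RPKM, so these entered only through the group where they were high. The other 18 intronic rows, 17 of them lower, had a median of -0.52. Of the 35 exonic rows, 2 entered through PBS alone, and the other 33 had a median of -0.01. The intronic rows' hosts had a median log2 difference of -0.10, with 14 of 21 lower. Depth was unequal between the classes, and among rows with a median under 10 reads the 23 intronic ones had a median of -0.50 and the 9 exonic ones -0.28. By containment alone the medians lay close, at -0.29 over the 75 rows inside (52 lower) and -0.23 over the 34 rows outside (22 lower). These medians are descriptions of the lists, with no test.

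**Figure D2:**
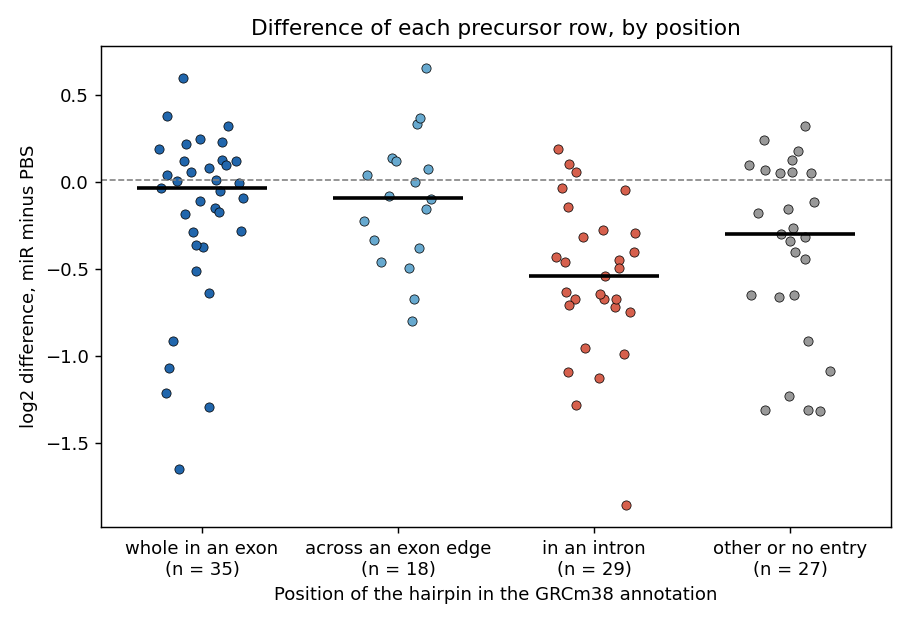
Log2 difference, miR minus PBS, of each precursor row (vertical axis) by the position of its hairpin in the GRCm38 annotation (horizontal axis), with a bar at each median and a dashed line at the median of all genes tested (0.01). The medians are -0.04 whole in an exon, -0.09 across an exon edge and -0.54 in an intron.

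The assignment to introns depends on the annotation. Under the comprehensive GENCODE set, which holds more transcripts, 14 hairpins changed class, Mir29c, Mir29b-2, Mir1249 and Mir3072 among them. The 19 rows that were then intronic had a median of -0.54 with 17 lower, and the 48 rows whole in an exon a median of -0.13 with 29 lower.

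By library, the intronic rows split the PBS group. Each row's log2 level was centred on its mean over the 12 libraries, and the median over the 29 intronic rows was taken in every library. It lay between -0.51 and -0.13 in the miR libraries and between 0.17 and 0.87 in PBS 8, 9, 10 and 12, while PBS 7 at -0.33 and PBS 11 at -0.39 lay within the range of the miR libraries. Reads summed over these rows came to 6.07 to 7.79 per M reads in miR, to 14.7 to 20.8 per M in PBS 8, 9, 10 and 12, and to 6.85 and 6.92 per M in PBS 7 and PBS 11. Much of this sum came from Mir29c, Mir29b-2, Mir1249 and Mir3072, which changed class under the comprehensive set. They held 813, 240, 233 and 167 reads in PBS, against 282, 77, 88 and 28 in miR. The 23 intronic rows with a median under 10 reads still include Mir3072. Their sums were 2.08 to 2.68 per M in miR and 4.17 to 9.00 per M in PBS 8, 9, 10 and 12. In PBS 7 and PBS 11 they were 2.39 and 2.23 per M. The 35 rows whole in exons together showed no such split, with medians of -0.13 to 0.07 in miR and -0.05 to 0.09 in PBS. Their 9 rows with a median under 10 reads did go that way. Those had medians of 0.13 to 1.00 in PBS 8, 9, 10 and 12, -0.02 and -0.15 in PBS 7 and PBS 11, and -0.40 to -0.04 in miR. Whether the split goes with position or with depth was not tested. Over the PBS libraries, the intronic rows ran with the nuclear-retained RNAs, a list chosen with earlier results of these data known. With that score as a covariate their median log2 difference was 0.13, and without PBS 8, 9, 10 and 12 it was -0.01.

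**Figure D3:**
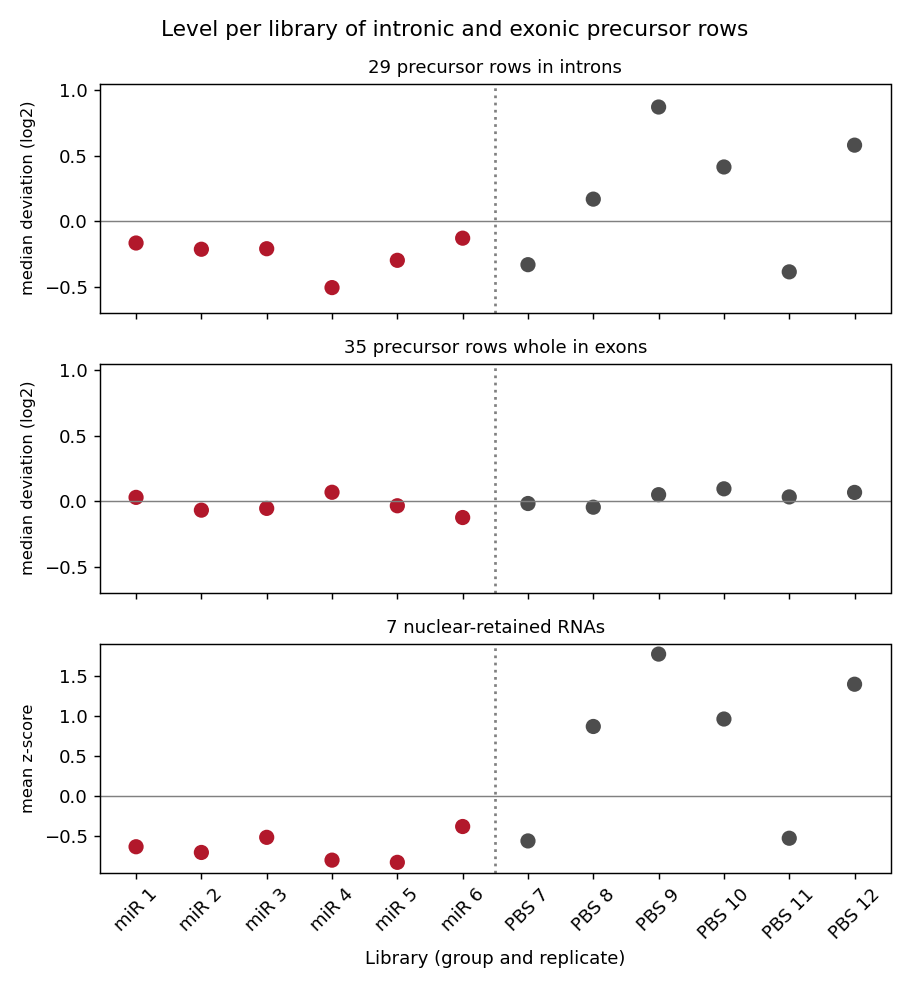
Level in each library (horizontal axis, 6 miR then 6 PBS) of the 29 intronic precursor rows, of the 35 rows whole in exons (both as the median log2 deviation from each row's mean) and of the 7 nuclear-retained RNAs (mean z-score). PBS 8, 9, 10 and 12 stand high in the first and last panels, from 0.17 to 0.87 and from 0.86 to 1.77, and PBS 7 and PBS 11 lie among the miR libraries in both.

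The row of smallest p was Mirlet7b, whose product belongs to the let-7 family, known for its role in developmental timing and differentiation. It lies on mm9 chromosome 15, bases 85537749 to 85537833 on the plus strand, and its hairpin falls in an exon of the noncoding Lncppara. Its lowest, median and highest levels were 0.901, 1.55 and 2.08 RPKM in miR against 2.63, 3.85 and 6.49 RPKM in PBS. Every miR library was below every PBS library, as held for 2 of the 109 rows and for 0.226% of all genes tested; no precursor row had the reverse separation, against 0.256% of genes. The log2 difference was -1.21 ± 0.18 (SE), with an adjusted p of 0.124 in limma, on 23 reads in miR and 70 in PBS. Mirlet7d, which encodes the same seed, had a log2 difference of -0.28 and an unadjusted p of 0.209 in limma.

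Mir5117 was the other row whose groups did not overlap. It lies within Gas5, a noncoding gene that carries small nucleolar RNAs in its introns, on mm9 chromosome 1, bases 162967484 to 162967574. It had 0.739, 1.599 and 2.20 RPKM (lowest, median, highest) in miR and 2.29, 4.67 and 5.62 RPKM in PBS. The lowest PBS library was PBS 7, just above the highest miR library. The log2 difference was -1.23 ± 0.20 (SE), with an adjusted p of 0.158 in limma, while Gas5 itself differed by -0.03 ± 0.06.

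Mir3101 and Mir1249 came next. Mir3101 lies within Rab4b, a small GTPase gene of endosome recycling, and had 0, 0.434 and 1.97 RPKM (lowest, median, highest) in miR and 1.66, 2.48 and 3.03 RPKM in PBS. The groups overlapped by 1 library on each side, miR 3 and PBS 7. Its log2 difference was -1.65 ± 0.32 (SE), with an adjusted p of 0.174 in limma. In the GRCm38 annotation its hairpin lies in an exon of Gm21983, although the row's level was only 0.0503 times that of Rab4b. Mir1249 lies within 5031439G07Rik and had 2.69, 4.19 and 7.07 RPKM in miR against 6.68, 12.4 and 19.6 RPKM in PBS. Only PBS 11 lay below the highest miR library. Its log2 difference was -1.29 ± 0.25 (SE), and limma gave an adjusted p of 0.174.

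Without PBS 7 and PBS 11, these 4 rows passed the threshold in limma, with adjusted p-values of 0.000417 for Mirlet7b, 0.000265 for Mir5117, 0.00644 for Mir3101 and 0.000844 for Mir1249. As those libraries were chosen on these same data, the p-values are descriptions. Without PBS 8, 9, 10 and 12, the log2 differences of the 4 rows were -0.89, -0.80, -1.38 and -0.66 in that order of rows, none past the threshold.

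**Figure D4:**
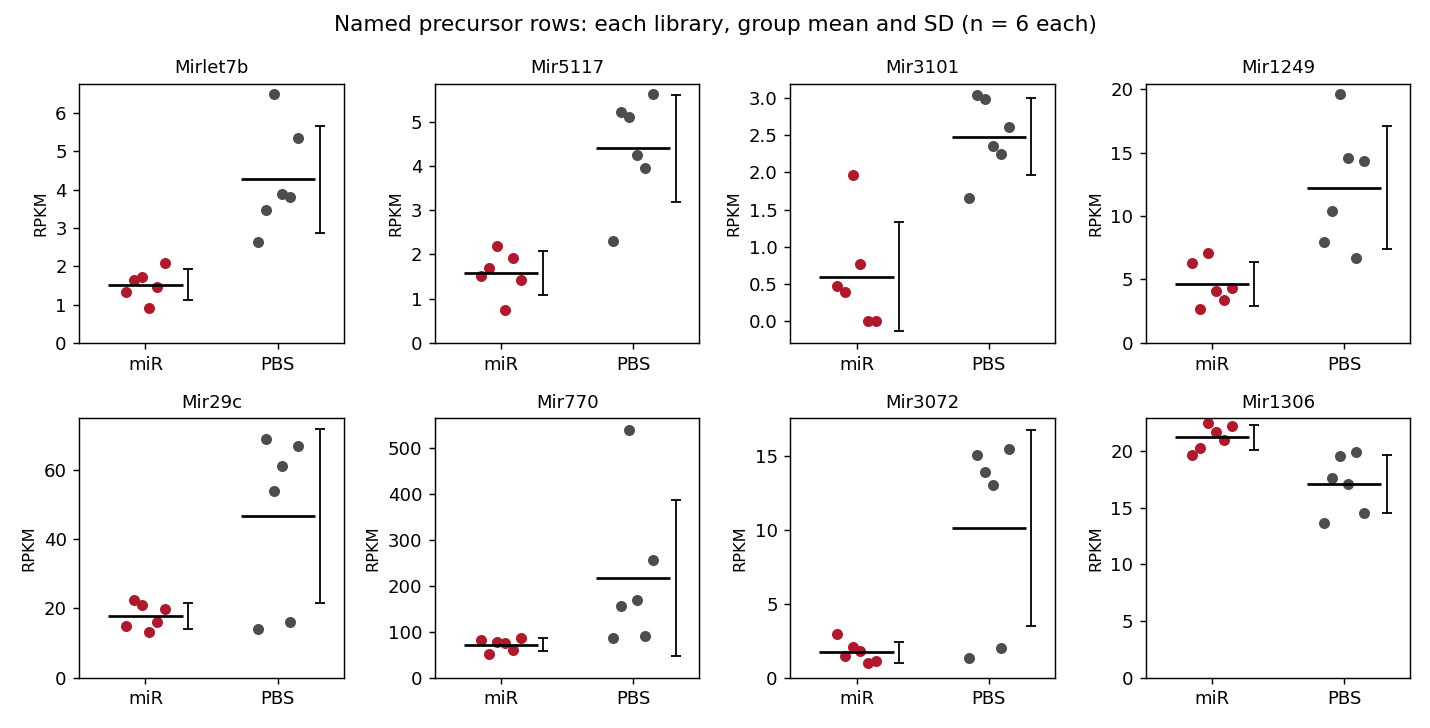
Level in RPKM (vertical axis) of 8 named precursor rows in each library, miR left and PBS right, with the group mean as a bar and the SD as a whisker (n = 6 each). All miR points lie below all PBS points for Mirlet7b and Mir5117, and 2 PBS points lie among or near the miR points for Mir29c and Mir3072.

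A cluster of rows lay in the imprinted region of chromosome 12, where Meg3, Rian and Mirg are noncoding RNAs made from the maternal chromosome and Rtl1 is made from the paternal one. It held 20 of the 109 rows, and 17 of them were lower in miR (median log2 difference -0.74). The 3 rows in Meg3 and the 6 in Mirg were all lower, as were their hosts. The limit on level bears on these counts. Mir3070a, Mir3070b and Mir341 had miR means of 0.39, 0.63 and 0.68 RPKM. Mir369 and Mir409, both in Mirg, had miR means of 0.76 and 0.86 RPKM. These lower rows passed the limit of 1 RPKM only through PBS. The directions over the region rested on PBS 8, 9, 10 and 12. Without those libraries 13 of the 20 rows were lower, with a median of -0.03, and Meg3 differed by 0.02, Mirg by 0.29 and Mir1906-1 by 0.14. With the nuclear-retained RNA score as a covariate 9 of the 20 were lower, with a median of 0.07, and Meg3 differed by 0.10, Mirg by 0.24 and Mir1906-1 by 0.22. Meg3 is itself among the genes of that score, so the covariate values of Meg3 and of rows within it are no independent check. Of the 20 rows, 17 were lower without PBS 7 and PBS 11, with a median of -1.11.

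Mir770, in an exon of Meg3, had 50.5, 76.9 and 85.7 RPKM (lowest, median, highest) in miR and 85.6, 162.5 and 539 RPKM in PBS. PBS 7 and PBS 11 lay near the top of the miR range, and PBS 9 stood far above the other libraries. The log2 difference was -1.30 ± 0.36 (SE) for Mir770 and -1.32 ± 0.38 for Meg3, with an adjusted p of 0.174 each in limma. Its ratio to Meg3 was 1.01 to 1.55 in miR, against 0.887 to 1.70 in PBS, so the row moved with its host. The log2 difference of Mir770 was -1.79 without PBS 7 and PBS 11, where limma gave an adjusted p of 0.00168, and -0.32 without PBS 8, 9, 10 and 12.

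Mir3072 had the largest difference of all 109 rows in the full set of libraries. It lies within Mirg and had 1.02, 1.61 and 2.94 RPKM (lowest, median, highest) in miR and 1.35, 13.5 and 15.4 RPKM in PBS. PBS 8, 9, 10 and 12 lay between 13.1 and 15.4 RPKM, while PBS 7 at 1.35 and PBS 11 at 2.01 lay within the miR range. The log2 difference was -1.86 ± 0.52 (SE) for Mir3072 and -1.09 ± 0.38 for Mirg, with adjusted p-values of 0.174 and 0.179 in limma. Mir3072 differed by -2.79 without PBS 7 and PBS 11, where limma gave an adjusted p of 3.1e-06, and by -0.0040 without PBS 8, 9, 10 and 12. The other 5 rows in Mirg, Mir377, Mir369, Mir409, Mir410 and Mir412, differed by -1.07 to -0.67.

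The rows at the Rtl1 locus went both ways. Of the 7 rows there, 4 were lower in miR and 3 higher, from -0.65 for Mir431 to 0.32 for Mir434, with a median of -0.16. Mir3071 and Mir136, which cover the same bases on opposite strands, differed by 0.05 each. The 2 rows in Rian, Mir341 and Mir1188, differed by -0.72 and -0.46 while Rian itself differed by -0.10. Outside the chromosome 12 region, 22 of 25 intronic rows were lower in miR, with a median of -0.50. Of these, Mir23b, Mir99a, Mir1894, Mir7-1, Mir5119, Mir688 and Mir677 had a miR mean under 1 RPKM. Mir106b and Mir744 had a PBS mean under 1 RPKM. Such rows entered only through the group where they were high. Without PBS 8, 9, 10 and 12, the median over all 29 intronic rows was -0.01.

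The 6 rows of smallest p among those higher in miR lay in exons or at exon edges, with log2 differences of 0.23 to 0.65. Mir1306, in an exon of Dgcr8, whose product is Drosha's partner in hairpin release, had 19.7, 21.3 and 22.5 RPKM (lowest, median, highest) in miR and 13.6, 17.4 and 19.9 RPKM in PBS. The groups overlapped only through miR 1 and PBS 11. The log2 difference was 0.32 ± 0.09 (SE), and limma gave an adjusted p of 0.174. Dgcr8 itself averaged 7.41 ± 0.30 RPKM in miR against 7.50 ± 0.57 RPKM in PBS (SD, n = 6 each). Without PBS 7 and PBS 11 Mir1306 differed by 0.30, and its adjusted p in limma was 0.0127.

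The other rows of smallest p in this direction had adjusted p-values of 0.177 to 0.278 in limma. Mir1902, in an exon of the kinase gene Hipk3, averaged 41.6 ± 3.92 RPKM in miR against 32.6 ± 8.10 RPKM in PBS (SD, n = 6 each), a log2 difference of 0.38. Mir1892, in 1110002B05Rik, averaged 69.2 ± 4.04 RPKM in miR against 58.8 ± 9.19 RPKM in PBS, a difference of 0.25. In both rows the PBS libraries spread wider than the miR libraries, and the groups overlapped. Mir207, in the chaperone gene Dnaja1, averaged 7.84 ± 0.99 RPKM in miR against 6.24 ± 1.53 RPKM in PBS, a difference of 0.33. Mir5114 averaged 1220 ± 108 RPKM in miR against 1052 ± 203 RPKM in PBS, a difference of 0.23, beside 0.15 for Scd2. Mir5129, at an exon edge of the transcription factor gene Zeb2, averaged 7.69 ± 2.38 RPKM in miR against 5.31 ± 3.54 RPKM in PBS, a difference of 0.65. The signs of Mir5114 and Mir5129 turned without PBS 8, 9, 10 and 12, to -0.067 and -0.37, and with the nuclear-retained RNA score as a covariate, to -0.071 and -0.44. They were 0.38 and 1.17 without PBS 7 and PBS 11. Mir1902, Mir1892 and Mir207 differed by 0.028, 0.13 and 0.17 without PBS 8, 9, 10 and 12. Leaving out PBS 7 and PBS 11 instead gave 0.55, 0.30 and 0.41 for the same rows. Among the abundant rows, Mir678 differed by -0.15, Mir3064 by -0.46 and Mir1906-1 by -1.31. In that order these were -0.027, -0.055 and 0.14 without PBS 8, 9, 10 and 12. They were -0.22, -0.66 and -2.04 without PBS 7 and PBS 11.

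The precursors of the injected microRNAs were mostly not seen. Rows for Mir30a, Mir30c-1, Mir30c-2, Mir193, Mir375 and Mir532 were listed at 0 in all 12 libraries. Mir204, within the ion channel gene Trpm3, had 0 reads in miR and 2 in PBS, and Mir32, within D730040F13Rik, had 4 reads in miR and 3 in PBS. At this depth no difference in these rows was detectable. Mir698, at the exon edge of the inositol phosphatase gene Inpp5b, had 4.58, 6.15 and 7.46 RPKM (lowest, median, highest) in miR and 3.34, 6.43 and 9.59 RPKM in PBS, and its log2 difference was 0.00 ± 0.19 (SE).

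Mir29c was the best covered precursor of an injected microRNA. The miR-29 family is known for targeting transcripts of collagens and other matrix proteins. Its row lies on mm9 chromosome 1, bases 196863741 to 196863828 on the plus strand, within A330023F24Rik. It had 13.1, 17.9 and 22.4 RPKM (lowest, median, highest) in miR and 14.1, 57.4 and 68.7 RPKM in PBS. PBS 7 and PBS 11, at 14.1 and 16.0 RPKM, lay within the miR range, and the other 4 PBS libraries lay above every miR library. The log2 difference was -1.13 ± 0.38 (SE), with an adjusted p of 0.177 in limma.

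Mir29b-2, the neighbour of Mir29c with the same 3p seed, had the same pattern at a lower level. It averaged 5.48 ± 2.01 RPKM in miR against 15.01 ± 8.98 RPKM in PBS (SD, n = 6 each), a log2 difference of -1.10. That difference was -1.88 without PBS 7 and PBS 11, where limma gave an adjusted p of 8.95e-05, and 0.47 without PBS 8, 9, 10 and 12. The host A330023F24Rik averaged 3.81 ± 0.64 RPKM in miR against 7.80 ± 4.09 RPKM in PBS, a difference of -0.79 ± 0.28 (SE). For Mir29c the log2 difference without PBS 7 and PBS 11 was -1.80, and limma gave an adjusted p of 6.42e-06. Without PBS 8, 9, 10 and 12, Mir29c had a log2 difference of 0.22 and A330023F24Rik 0.13.

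A row can differ from its host, and this was tested per library over all 124 short nested rows, of at most 200 bases, with a mean of at least 1 RPKM. In limma, 3 of the 124 pairs (2.42%) had an adjusted p below 0.05, all of them precursor rows, and all were lower in miR relative to the host. At an unadjusted p under 0.05 there were 21 pairs (16.9%), against 7 of the 75 precursor rows (9.33%). Over all pairs 62.9% were lower in miR, against 36 of 75 precursor rows (48%), with a median of 0.01 over the precursor rows. Of the other 49 short rows, 46 of them for small nucleolar or Cajal body RNAs, 42 were lower, with a median of -0.58.

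The 3 pairs were Mir1249 in 5031439G07Rik, Mir3101 in Rab4b and Mir5117 in Gas5. The ratio of Mir1249 to its host was 0.114, 0.178 and 0.291 (lowest, median, highest) in miR and 0.290, 0.422 and 0.681 in PBS. The log2 difference of the pair was -1.07 ± 0.24 (SE), with an adjusted p of 0.0271 in limma. Mir3101 to Rab4b had ratios of 0, 0.0151 and 0.0559 in miR and 0.0527, 0.0779 and 0.106 in PBS, and a log2 difference of -1.55 ± 0.38, with an adjusted p of 0.0271 in limma. Mir5117 to Gas5 had ratios of 0.0289, 0.0572 and 0.0785 in miR and 0.0861, 0.159 and 0.180 in PBS, and a log2 difference of -1.21 ± 0.30, with an adjusted p of 0.0271 in limma. The groups did not overlap for Mir5117 and overlapped by 1 library on each side for Mir1249 and for Mir3101. Mir3101, with a mean of 0.600 RPKM in miR and 2.48 RPKM in PBS, reached the limit on level only through PBS.

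These 3 calls were not stable. With the nuclear-retained RNA score as a covariate the differences were -0.51, -1.30 and -0.84, with 0 pairs called by limma. The count of called pairs was 0 without miR 2, miR 4, miR 5, miR 6, PBS 9, PBS 10 or PBS 12, 1 without miR 1 or PBS 8, and 5 without PBS 7 or PBS 11. By contrast, the pair difference was -0.33 ± 0.20 (SE) for Mir29c and 0.02 ± 0.15 for Mir770, with adjusted p-values of 0.398 and 0.967 in limma.

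**Figure D5:**
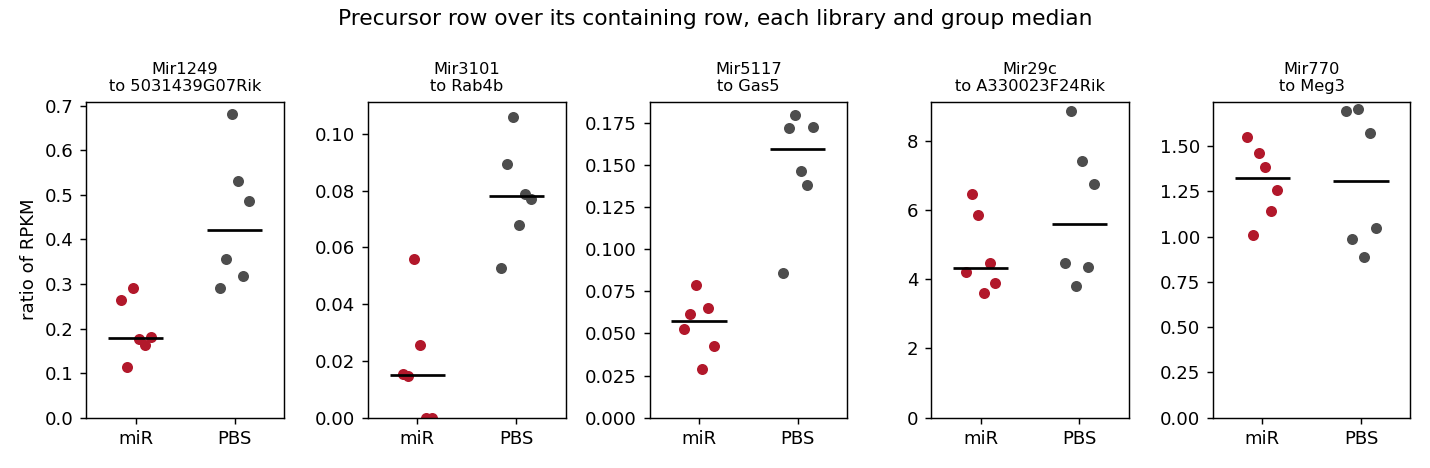
Ratio of the RPKM of a precursor row to that of its containing row (vertical axis) in each library for 5 pairs, miR left and PBS right, with bars at the medians. The groups are apart for Mir5117 (at most 0.0785 in miR and at least 0.0861 in PBS) and overlap for Mir29c and Mir770.

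The genes that make and use microRNAs showed no called difference. Of 29 such genes, 28 were tested. In miR, 13 lay higher and 15 lay lower (median log2 difference -0.02), with 0 adjusted calls in limma. At an unadjusted p under 0.05, 1 of the 28 was higher (3.57%, against 9.12% over all genes) and 5 were lower (17.9%, against 11.1% over all genes). Among the 8 genes of nuclear processing, 7 were lower, 3 of them at an unadjusted p under 0.05. Tarbp2, a partner of Dicer, had the smallest p, at 1.997 ± 0.30 RPKM in miR against 3.16 ± 0.85 RPKM in PBS (SD, n = 6 each), with an adjusted p of 0.174 in limma. Ddx17, a helicase that works with Drosha, was at 52.9 ± 1.88 RPKM in miR against 63.0 ± 8.38 RPKM in PBS, and Mov10, a helicase of the silencing complex, was at 2.20 ± 0.35 RPKM in miR against 3.22 ± 0.84 RPKM in PBS. Without PBS 8, 9, 10 and 12 the log2 differences of Tarbp2, Ddx17 and Mov10 were -0.066, -0.083 and -0.0094, and without PBS 7 and PBS 11 they were -0.75, -0.32 and -0.65.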

How the data were processed

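The authors deposited 1 table of RPKM values per RefSeq transcript row and library. Build mm9 and edgeR are named in the submitters' processing notes, with no role stated. Aligner, read counter, strand setting and scaling: not given in the sources used here. All values were multiples of 0.00005, and the steps of short rows gave reads per library, with all low values within 2% of whole reads. Accessions named 868 of 913 rows that lacked a symbol.

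Values were analysed as log2(RPKM + 0.5), which understates differences of low rows, over the 13273 genes (row of highest mean per symbol) that reached a mean of 1 RPKM, with limma 3.58.1 in R 4.3.3 (variance trend, 2-sided, Benjamini-Hochberg) and no covariate. Groups came from the labels, which name no litters, so p-values measure the spread between these animals. A host is a longer row of another symbol with the same chromosome and strand around the row, and of several the one of highest mean. The table has 25 rows with a span over 2.5 Mb and 26 whose end lies before their begin. The counts inside and outside and the pair test use the containing rows as they stand, and 4 named hosts change without the long rows. Exon and intron classes come from RefSeq hairpin positions and GENCODE M21 exons, both on GRCm38, with no conversion of mm9 coordinates.

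Rows named are the 6 of smallest p in each direction, the 6 of highest mean, the precursors of the injected microRNAs, and the 4 highest and 4 lowest ratios to a host, with their hosts, and 3 processing genes of smallest p. Other names were added after their values were seen. Marker lists covered paraventricular nucleus, thalamus, choroid plexus, endothelium, and cortex with hippocampus. Summed thalamus markers were at 20.3 to 69.9 RPKM in miR and 23.4 to 61.5 RPKM in PBS, and cortex with hippocampus at 4.15 to 7.48 RPKM in miR and 3.74 to 8.19 RPKM in PBS. Members and lists were chosen with earlier results of these data known. The scripts were tested on simulated data. Alternatives were pseudocounts, filters, scalings, fit options, a covariate, an exact permutation test and libraries left out. The classes by annotation and the rule on long rows were added after seeing the data. Tables were made with Python 3.11.15 and pandas 2.3.3, and figures with matplotlib 3.10.9.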

Additional observations from a re-analysis of the deposited data

Results flagged for a closer look

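In 50 sets of 6 libraries (25 named precursor and containing rows in each group), 5 had a library far from the others, where chance alone gives about 1 in 20 sets. Of these, 3 were miR 6, which had the highest level in its group of Mir1906-1 (62.2 RPKM, the others at 47.3 to 52.8 RPKM), of its host Meg3 (68.1 RPKM, the others at 49.9 to 55.1 RPKM) and of the Mir29c host A330023F24Rik (5.12 RPKM, the others at 3.47 to 3.65 RPKM). In the Mir1249 host 5031439G07Rik, miR 5 was lowest in its group at 20.7 RPKM, the others being at 23.1 to 24.3 RPKM, and PBS 11 was lowest in its group at 21.03 RPKM, the others being at 27.3 to 29.4 RPKM.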

How the results depend on the processing

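Of the results that answer a comparison, 209 recomputed values stayed within the limits set and 45 moved; the cause was not tested unless the setting removes libraries or rows. With library weights 3025 genes, 30 precursor rows, 24 pairs and 6 processing genes passed, 42 precursor rows were at an unadjusted p under 0.05 and the exon median was 0.048. Without PBS 7 and 11 these counts were 3107 genes, 34 precursor rows, 24 pairs, 7 processing genes and 48 precursor rows. The nuclear RNA covariate and the fit without PBS 8, 9, 10 and 12 gave 0 pairs each and 11 precursor rows at an unadjusted p under 0.05 each; the medians were -0.057 and -0.073 inside host rows and 0.13 and -0.011 in introns. A filter at 5 RPKM, which tests fewer rows, gave 16 such rows, 1 pair and medians of -0.090 inside, 0.049 outside and -1.10 in introns, and no value for Mirlet7b, Mir5117 and Mir3101. The exact permutation test called 0 pairs, though its smallest p of 0.00216 passes the adjustment over the pairs where at least 6 of them share it, so this says nothing on stability, and the comprehensive annotation gave an exon median of -0.13.

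With 1 library left out, called genes ranged from 0 to 909 (909 without PBS 7, 429 without PBS 11, 1 without miR 3), called precursor rows from 0 to 17, pairs from 0 to 5 and processing genes from 0 to 5 (5 without PBS 7, 2 without PBS 11). The log2 difference of Mir698 ranged from -0.15 to 0.13 and that of Gas5 from -0.070 to 0.0052.

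Signs turned under the nuclear RNA covariate and without PBS 8, 9, 10 and 12, given in that order, for Mir29c (0.13, 0.22), Mir1906-1 (0.22, 0.14), Mir5114 (-0.071, -0.067), Mir5129 (-0.44, -0.37), Meg3 (0.10, 0.023), Mirg (0.24, 0.29), A330023F24Rik (0.23, 0.13), Gas5 (0.060, 0.050) and Mir698 (0.14, 0.040), and under the covariate alone for Mir3064 (0.057). Meg3 is itself among the genes behind that covariate. Mir698, at 0.00, also turned with a pseudocount of 0.5 reads (0.0029), median scaling (0.012), quantile normalization (0.016) and library weights (0.016). No paired analysis was possible because the replicate numbers, 1 to 6 in miR and 7 to 12 in PBS, share none. Depth limits the 50 rows with a median under 10 reads.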
